A study of Mus musculus with 20 samples.

Results

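Nr4a1, Nr4a2 and Nr4a3 are the 3 genes of the NR4A family of orphan nuclear receptors, and each was read by 1 probe set among 17771 mouse genes with an unambiguous probe set. They were taken from the table by gene symbol. Eosinophils were grown from the bone marrow of wild-type (Dusp5+/+) and Dusp5-knockout (Dusp5-/-) mice, and on day 12 of culture were kept in medium or given 25 ng/ml of IL-33 for 4 hours. The replicate numbers 1 to 5 of each genotype are read here as 5 mice. The 4 groups, wild type in medium, knockout in medium, wild type with IL-33 and knockout with IL-33, held 5 one-colour Affymetrix arrays each. The titles of the 10 arrays with IL-33 carry the word Dusp5 where a treatment would stand, and the treatment was taken from the samples' treatment label. All 20 arrays shared the culture from bone marrow; the ages and strain of the mice and the growth factors of the culture are not stated in the labels. The design asks how the loss of Dusp5, a nuclear phosphatase that inactivates the kinases ERK1 and ERK2, alters the response to IL-33, an alarmin of the interleukin-1 family.

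The NR4A proteins are called Nur77 (Nr4a1), Nurr1 (Nr4a2) and Nor1 (Nr4a3). Their ligand-binding pockets are filled by bulky side chains, so that their activity follows their amount and modification more than a ligand. They bind the nerve growth factor-induced element as monomers, and Nr4a1 and Nr4a2 can also pair with retinoid X receptors. Their genes are immediate-early genes, transcribed without new protein synthesis after signals that act through ERK, CREB, MEF2 or NF-kB. In mice, Nr4a1 is known for its need in the survival of patrolling monocytes and as a marker of antigen receptor signalling, and Nr4a2 for its need in dopamine neurons.

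The promoter windows of the 3 genes are shown because Nr4a1 and Nr4a3 rose together with IL-33 and Nr4a2 was dim throughout, while all 3 windows held the same number of core sites TGACG of the cAMP response element. The sequences are RefSeq's for GRCm38.p6, 250 bases before the transcription start and 50 from it, written 5′ to 3′ on the gene's strand. All 3 members were matched by symbol. The windows lie at chr15:101266596-101266895 on the plus strand for Nr4a1, at chr2:57123954-57124253 on the minus strand for Nr4a2 and at chr4:48045055-48045354 on the plus strand for Nr4a3. In the annotation Nr4a1 spans 101253902 to 101274795 of chromosome 15, so its window belongs to a start inside the gene's span. Nr4a2 spans 57106830 to 57124003 of chromosome 2 and Nr4a3 spans 48045078 to 48086447 of chromosome 4. Capitals mark the core site TGACG, or CGTCA where it lies on the other strand.
Nr4a1: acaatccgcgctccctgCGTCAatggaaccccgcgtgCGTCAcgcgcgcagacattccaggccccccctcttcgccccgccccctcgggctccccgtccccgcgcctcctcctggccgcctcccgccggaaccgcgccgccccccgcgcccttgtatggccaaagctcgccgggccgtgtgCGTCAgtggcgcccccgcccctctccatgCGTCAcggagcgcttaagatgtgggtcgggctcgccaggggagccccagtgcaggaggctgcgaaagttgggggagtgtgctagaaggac
Nr4a2: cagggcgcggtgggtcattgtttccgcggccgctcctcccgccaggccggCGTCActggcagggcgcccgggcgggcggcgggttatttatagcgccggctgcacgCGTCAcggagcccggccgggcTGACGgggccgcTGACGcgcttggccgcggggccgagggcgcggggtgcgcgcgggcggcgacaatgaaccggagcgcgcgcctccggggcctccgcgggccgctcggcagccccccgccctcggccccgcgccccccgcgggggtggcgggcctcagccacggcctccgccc
Nr4a3: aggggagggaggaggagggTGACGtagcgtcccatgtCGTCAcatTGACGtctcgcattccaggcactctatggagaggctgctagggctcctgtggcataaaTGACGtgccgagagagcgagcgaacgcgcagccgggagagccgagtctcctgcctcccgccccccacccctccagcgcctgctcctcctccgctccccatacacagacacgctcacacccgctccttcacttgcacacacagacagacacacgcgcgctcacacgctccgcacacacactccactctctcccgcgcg

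Each of the 3 windows held 4 core sites. Of 32851 windows of this length in 27025 genes, 20.8% held at least 1 match to TGACG on either strand and 0.231%, or 76 windows, held 4 or more. The bases G and C made up 72.3% of the Nr4a1, 81.7% of the Nr4a2 and 64.7% of the Nr4a3 window. The shares over all windows were not matched for this content, on which matches to TGACG can depend. Counting the first transcribed base as 1 and the base before it as -1, the 4 matches of Nr4a1 began at -233, -213, -69 and -40. Those of Nr4a2 began at -200, -144, -123 and -111, and those of Nr4a3 at -231, -213, -205 and -147. The full element TGACGTCA, present in 1.79% of windows, was in none of the 3, nor was the monomer site of the NR4A proteins themselves, AAAGGTCA, present in 1.51%. The AP-1 site TGANTCA (7.81% of windows) and the serum response element, searched as the CArG box (1.63%), had no exact match in any. Variants of these sites that differ by a base were not counted, so such variants may lie in the windows. An NF-kB site, found in 8.46% of windows, lay in the Nr4a1 window at -3 to 7, and a MEF2 site, found in 3.19%, lay in the Nr4a2 window at -167 to -158. These are matches of letters in the windows only, and binding of any factor was not measured.

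**Figure D1:**
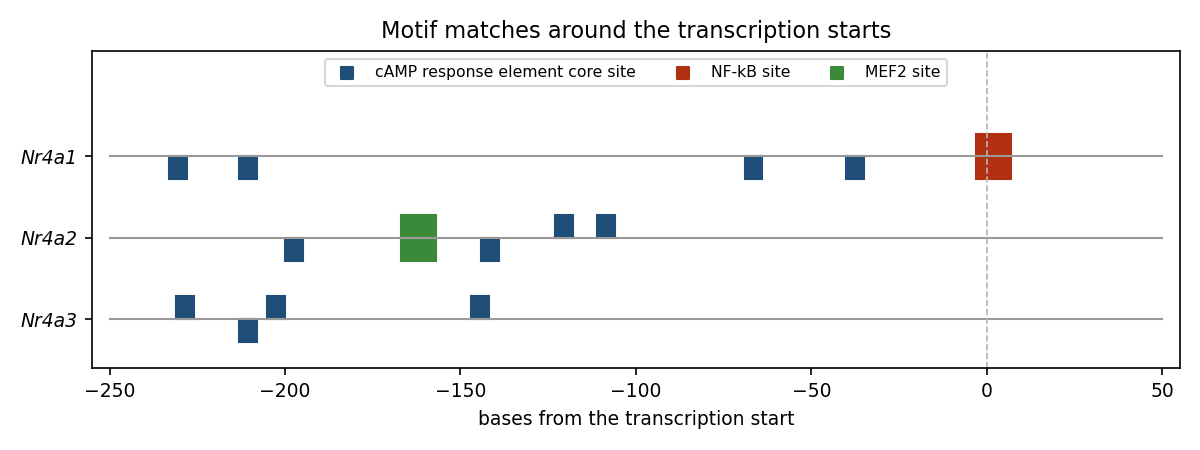
Positions of motif matches in the promoter windows of Nr4a1, Nr4a2 and Nr4a3, in bases from the transcription start (dashed line, drawn before the first transcribed base). Blue squares above or below a gene's line are cAMP response element core sites (TGACG) on the gene's strand or the other strand; each gene has 4. The red square in the Nr4a1 window is an NF-kB site and the green square in the Nr4a2 window a MEF2 site, each matching on both strands.

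Nr4a1 was clearly detected in unstimulated eosinophils, Nr4a3 was near the dim end of the array, and Nr4a2 was not detected above it in any group. Levels are the deposited log2 expression values. The 40th percentile of an array, which lay between 3.56 and 3.68, served as the mark of a dim probe set. Nr4a1 exceeded it by 2.30 to 3.10 in medium and by 4.44 to 5.76 with IL-33. Nr4a3 exceeded it by 0.50 to 1.13 in medium and by 1.33 to 2.43 with IL-33, and both genes exceeded it on 20 of 20 arrays. Nr4a2 lay below it on 20 of 20 arrays, by 0.32 to 1.42. Levels of different probe sets depend on the probes and are not compared here.

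IL-33 raised Nr4a1 in both genotypes, and it stood higher in knockout than in wild-type cells after IL-33. In wild-type cells in medium its level was 6.46, 6.68, 6.49, 6.51 and 5.88 in replicates 1 to 5. In knockout cells in medium it was 6.29, 6.52, 6.60, 6.50 and 6.39. These 2 groups overlapped, and 1 wild-type array was lower than the other 9. With IL-33 the wild-type level was 8.18, 8.08, 8.23, 8.41 and 8.24. With IL-33 the knockout level was 9.25, 8.75, 9.43, 8.83 and 8.99. Every array with IL-33 was above every array in medium, and every knockout array with IL-33 was above every wild-type array with IL-33, by a gap of at least 0.34.

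In ascending order the group means of Nr4a1 were 6.40 ± 0.31 (SD, n = 5) in wild type in medium, 6.46 ± 0.12 in knockout in medium, 8.23 ± 0.12 in wild type with IL-33 and 9.05 ± 0.29 in knockout with IL-33. The first 2 did not differ beyond their spread. The rise with IL-33 in wild-type cells was 1.82 ± 0.14 on the log2 scale (SE), or 3.54-fold (limma, Benjamini-Hochberg adjusted p = 1.39e-09), the rank 120 among 11767 genes tested. In knockout cells the rise was 2.59 ± 0.14, or 6.03-fold (limma, adjusted p = 4.93e-12), rank 69. Knockout minus wild type was 0.82 ± 0.14 after IL-33, or 1.77-fold (limma, adjusted p = 0.00582), with a 95% interval from 0.54 to 1.11, and ranked 25 among the genes tested. In medium the same difference was 0.06 ± 0.14 (limma, adjusted p = 0.872), with an interval from -0.23 to 0.34.

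Nr4a3 followed the same order of groups with smaller steps. In wild-type cells in medium its level was 4.55, 4.41, 4.39, 4.12 and 4.20 in replicates 1 to 5. In knockout cells in medium it was 4.42, 4.76, 4.39, 4.11 and 4.46. The groups in medium overlapped almost entirely. With IL-33 the wild-type level was 5.25, 5.11, 5.31, 5.09 and 4.97. With IL-33 the knockout level was 5.55, 5.68, 6.10, 5.87 and 6.01. Every array with IL-33 was above every array in medium, and after IL-33 the lowest knockout array was 0.24 above the highest wild-type array.

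The group means of Nr4a3 were 4.33 ± 0.17 (SD, n = 5) and 4.43 ± 0.23 in wild type and knockout in medium, which did not differ beyond their spread, then 5.14 ± 0.13 in wild type with IL-33 and 5.84 ± 0.23 in knockout with IL-33. The rise with IL-33 was 0.81 ± 0.12 in wild-type cells, or 1.75-fold (limma, adjusted p = 1.49e-05), and 1.42 ± 0.12 in knockout cells, or 2.67-fold (limma, adjusted p = 5.24e-09). These rises ranked 428 and 219 among the genes tested. Knockout minus wild type after IL-33 was 0.70 ± 0.12, or 1.62-fold (limma, adjusted p = 0.0069), with an interval from 0.45 to 0.95 and rank 52. In medium it was 0.09 ± 0.12 (limma, adjusted p = 0.731).

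Nr4a2 stayed at the dim end of the array in all 4 groups, and no change in it was detectable. In medium its level was 2.74, 2.66, 2.82, 2.50 and 2.78 in wild-type replicates 1 to 5 and 2.60, 2.45, 2.45, 2.44 and 3.23 in knockout replicates. With IL-33 it was 2.95, 2.56, 2.65, 2.29 and 2.89 in wild-type and 2.74, 2.54, 3.04, 2.21 and 3.18 in knockout replicates. All 4 groups overlapped, with means from 2.63 to 2.74, and 1 knockout array in medium stood above the other 4. Because the probe set was dim on every array it did not enter the test across genes. Its differences were -0.03 with IL-33 in wild-type cells, 0.11 with IL-33 in knockout cells, -0.06 between genotypes in medium and 0.08 between genotypes after IL-33. With all 17771 genes fitted regardless of brightness, limma's adjusted p for Nr4a2 was 0.663 or more in each of these 4 comparisons.

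**Figure D2:**
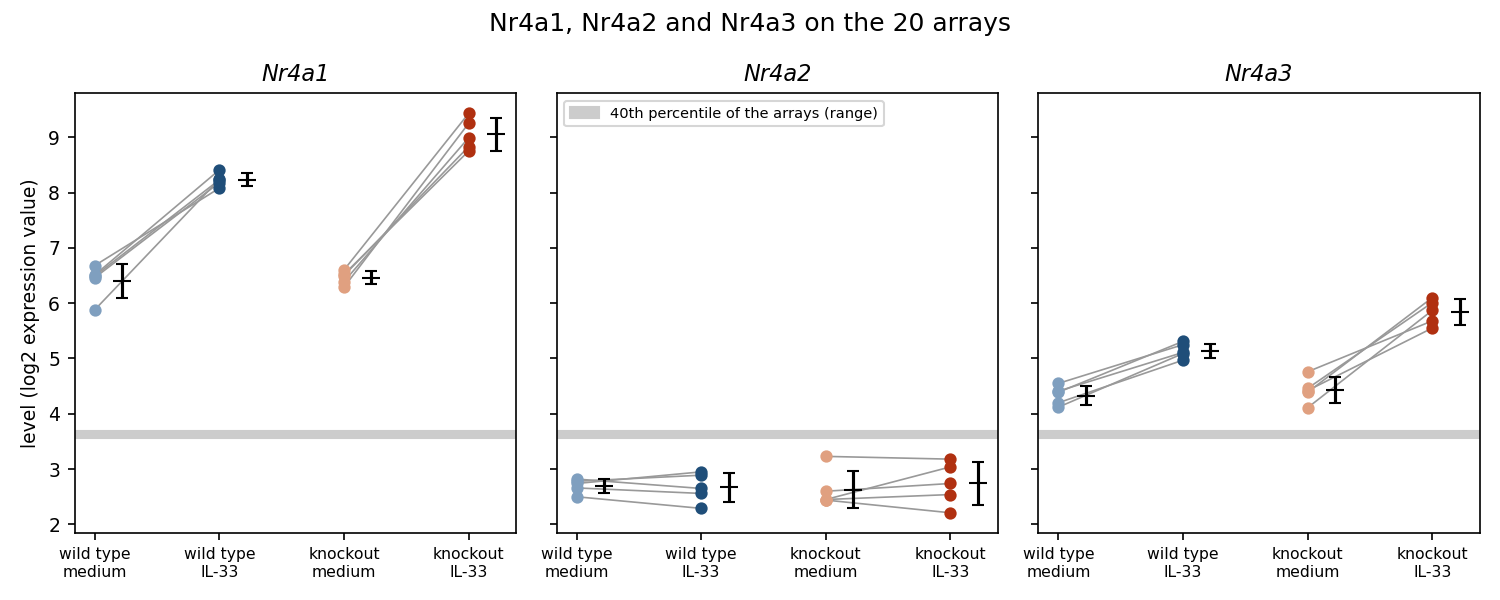
Log2 level of Nr4a1, Nr4a2 and Nr4a3 on each of the 20 arrays, by genotype and treatment. Points are arrays, grey lines join the arrays of the same replicate number, bars are the mean ± SD of 5 arrays, and the grey band is the range of the arrays' 40th percentiles. Nr4a1 reached 9.05 and Nr4a3 5.84 on average in knockout cells with IL-33, and Nr4a2 stayed below the band.

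Of the 2 family members tested, both were called higher with IL-33 in wild-type cells, where 16.1% of all genes tested were called higher and 26.7% lower at an adjusted p under 0.05. Both were called higher with IL-33 in knockout cells, against 18.9% of genes called higher and 33.2% lower. Both were called higher in knockout than in wild-type cells after IL-33, where 0.986% of genes were called higher and 1.22% lower. Those 116 higher and 144 lower genes became 151 and 72 under a further quantile normalization, and their total of 260 ran from 24 to 1659 over the settings and single arrays left out. Neither was called in medium, where the share was 0.0255%. The comparisons that use the same arrays are not independent of each other. The calls of both genes with IL-33 and between genotypes after IL-33 held when each of the 20 arrays was left out in turn. They also held under every other setting that gives the comparison. An array outside the groups compared can alter the adjusted p but not the difference. In bulk RNA, more cells that express a gene and more transcript per cell cannot be told apart.

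The response to IL-33 of the cells of each mouse was read within pairs, since arrays of the same genotype and replicate number deviated together. A pair is taken as 1 mouse, which the shared deviation alone does not show. In wild-type mice 1 to 5 the rise of Nr4a1 was 1.72, 1.40, 1.74, 1.91 and 2.37 on the log2 scale. In knockout mice 1 to 5 it was 2.96, 2.23, 2.83, 2.33 and 2.60. The mean rise was 1.82 ± 0.35 (SD, n = 5) in wild-type and 2.59 ± 0.31 in knockout mice, and the ranges overlapped through 1 wild-type mouse, whose array in medium was the low one. The difference of 0.77 gave p = 0.0238 in an exact two-sided permutation test over the assignments of genotype to mice, in which the smallest possible p is 0.0079.

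The rise of Nr4a3 was 0.70, 0.70, 0.92, 0.97 and 0.77 in wild-type mice 1 to 5. It was 1.14, 0.92, 1.72, 1.75 and 1.55 in knockout mice. The rises averaged 0.81 ± 0.13 (SD, n = 5) and 1.42 ± 0.37, and the lowest knockout mouse lay within the wild-type range. Their difference of 0.60 gave p = 0.0159 in the same exact permutation test. For Nr4a2 the rises averaged -0.03 ± 0.18 and 0.11 ± 0.30, with an exact permutation p = 0.437. These 3 tests are not adjusted for each other. Nr4a1 and Nr4a3 rose in 10 of 10 mice and Nr4a2 in 5 of 10.

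**Figure D3:**
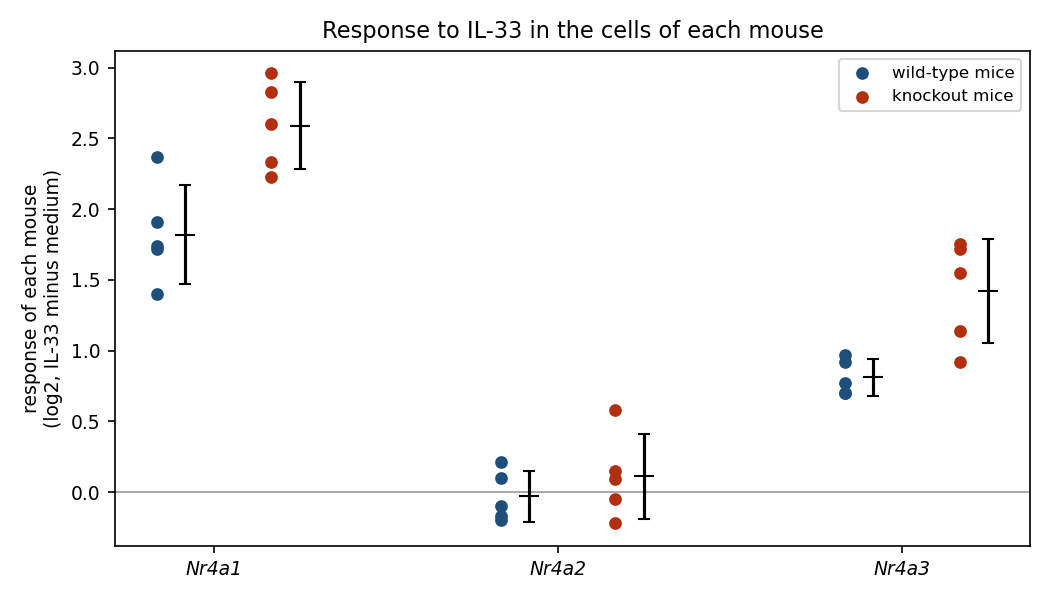
Change with IL-33 in the cells of each mouse, log2 level with IL-33 minus log2 level in medium, for Nr4a1, Nr4a2 and Nr4a3. Points are mice, 5 per genotype, and bars are mean ± SD. Nr4a1 rose by 1.40 to 2.37 in wild-type and by 2.23 to 2.96 in knockout mice, Nr4a3 by 0.70 to 0.97 and by 0.92 to 1.75, and Nr4a2 lay on both sides of 0.

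Fitted across all genes, the difference of the responses was 0.77 ± 0.19 for Nr4a1 and 0.60 ± 0.17 for Nr4a3, ranks 15 and 33 of 11767, and neither passed (limma interaction, adjusted p = 0.522 and 0.675). No gene passed in that comparison (0% called), in which limma gave 568 genes, or 4.83%, at an unadjusted p under 0.05 and a smallest adjusted p of 0.282. With the mouse as a replicate block the adjusted p was 0.0482 for Nr4a1 and 0.0647 for Nr4a3 when the block was random, and 0.145 and 0.154 when it was fixed. The random block called 26 genes in this comparison. The larger response in knockout cells therefore passed for Nr4a1 in the random-block fit and not in the others.

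On the log2 scale the rise in knockout cells was 1.42 times that in wild-type cells for Nr4a1 and 1.745 times for Nr4a3. Among 1610 genes called higher with IL-33 in both genotypes the median ratio was 1.113, and 232 and 60 of them had a ratio at least as high as Nr4a1 and Nr4a3. Among the 315 of those genes that rose by at least 1 in wild-type cells, the median was 1.077, the quartiles were 0.977 and 1.182, and 14 had a ratio of at least that of Nr4a1. These ratios are descriptions with no test.

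The genotype label was borne out by Dusp5, whose level was 8.15 ± 0.26 (SD, n = 5) in wild-type and 4.40 ± 0.31 in knockout cells in medium and 9.77 ± 0.35 and 4.95 ± 0.18 with IL-33. Where its probes lie relative to the deleted part is not stated. Of 10 eosinophil markers listed, 7 were in the table. They averaged 11.31 to 11.43 per array in wild-type cells in medium, and 7 of 7 were above the 40th percentile on every array. With IL-33, 3 of the 7 fell and 0 rose in each genotype, and the averages were 10.94 to 11.12 in wild-type and 10.87 to 11.00 in knockout cells. The 3 that fell were Siglecf (-0.71 ± 0.15 and -0.61 ± 0.15 in wild-type and knockout cells), Il5ra (-0.84 ± 0.16 and -1.08 ± 0.16) and Alox15 (-0.53 ± 0.09 and -0.62 ± 0.09). Markers of neutrophils (10 genes) averaged 8.29 to 9.19 over the 20 arrays, those of monocytes, macrophages and dendritic cells (12 genes) 7.98 to 8.58, and those of mast cells and basophils (9 genes) 7.93 to 8.25, with Mcpt4 below the 40th percentile on every array. The 8 lymphocyte markers averaged 3.71 to 4.22, with Ms4a1 and Cd8a below the percentile on every array. Levels spread widely within the lists, given here for wild-type cells in medium. They ran from 8.33 (Il5ra) to 13.82 (Prg2) for eosinophils and from 5.24 (Fcnb) to 12.74 (S100a9) for neutrophils. For monocytes, macrophages and dendritic cells they ran from 4.71 (Cd209a) to 11.37 (Adgre1), and for mast cells and basophils from 3.36 (Mcpt4) to 12.67 (Cpa3). Levels depend on the probes, so the list averages do not give the share of a cell type. 

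Some genes listed as markers of other cells were also called with IL-33. Eosinophils may express listed genes too, Adgre1 among them, and which cells gave the signal was not tested. Over all genes tested, 16.1% were called higher and 26.7% lower in wild-type cells, and 18.9% and 33.2% in knockout cells. None of the 10 neutrophil markers was called in either genotype. Of the 12 markers of monocytes, macrophages and dendritic cells, 3 rose (25%) and 2 fell (16.7%) in wild-type and 3 rose (25%) and 4 fell (33.3%) in knockout cells. The risers were Cd14 (2.13 ± 0.11 and 2.41 ± 0.11), Adgre1 (0.70 ± 0.18 and 0.66 ± 0.18) and Csf1r (0.62 ± 0.13 and 0.54 ± 0.13). Cx3cr1 (-0.82 ± 0.16 and -0.59 ± 0.16) and Ccr2 (-0.84 ± 0.27 and -1.17 ± 0.27) fell in both genotypes, and Cd68 (-0.49 ± 0.12) and C1qa (-0.40 ± 0.16) in knockout cells. Of 8 tested markers of mast cells and basophils, 12.5% rose in each genotype, and 25% fell in wild-type and 37.5% in knockout cells. Ms4a2 rose (0.65 ± 0.14 and 0.91 ± 0.14), Mcpt8 (-0.33 ± 0.08 and -0.36 ± 0.08) and Fcer1a (-0.43 ± 0.16 and -0.48 ± 0.16) fell, and Kit fell in knockout cells (-1.07 ± 0.31). Of 5 tested lymphocyte markers, 40% rose and 20% fell in wild-type cells, and 0% rose and 20% fell in knockout cells. Cd3d fell in both genotypes (-0.65 ± 0.12 and -0.64 ± 0.12), and Cd4 (0.32 ± 0.10) and Cd3e (0.26 ± 0.10) rose in wild-type cells. The calls of C1qa, Ccr2 (wild type), Cd3e, Cd4 and Fcer1a (wild type and knockout) were lost without any 1 of 9, 1, 5, 2, 6 and 1 arrays, that is, in each fit that left out 1 of that number of arrays (limma, adjusted p up to 0.155). Between genotypes after IL-33, 0 of the 7, 10, 12, 8 and 5 markers of these cell types that were tested were called. Over all genes tested the shares were 0.986% higher and 1.22% lower. The part of other cells in the levels of the NR4A genes was not tested.

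Of the 3 retinoid X receptor genes, whose proteins can pair with Nr4a1 and Nr4a2, Rxra and Rxrb fell with IL-33 and Rxrg was not called. Rxra fell by 0.75 ± 0.11 (SE) on the log2 scale in wild-type and by 0.88 ± 0.11 in knockout cells (limma, adjusted p = 1.22e-05 and 1.11e-06). Rxrb fell by 0.68 ± 0.09 and by 0.88 ± 0.09 (limma, adjusted p = 6.59e-06 and 1.27e-07). The change of Rxrg was 0.02 ± 0.09 and -0.10 ± 0.09. None of the 3 was called between genotypes.

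Among all other nuclear receptors, 41 of 45 were in the table and 25 were tested, the retinoid X receptors included. In wild-type cells 3 rose (12%), 8 fell (32%) and 14 were not called, near the 16.1% and 26.7% of all genes, with a median change of -0.10 against -0.05 over all genes tested. In knockout cells 3 rose (12%), 9 fell (36%) and 13 were not called, beside 18.9% and 33.2% of all genes, with a median of -0.18 against -0.08. In wild-type cells the largest falls were those of Nr1d2, the circadian repressor REV-ERB beta, by 0.80 ± 0.07 and by 0.84 ± 0.07 (limma, adjusted p = 1.9e-08 and 5.73e-09), and of Rora, which competes with REV-ERB proteins for their sites, by 0.76 ± 0.15 and by 1.16 ± 0.15 (limma, adjusted p = 0.000324 and 1.89e-06). The risers changed less than Nr4a3 did. Esrra, a regulator of mitochondrial genes, rose by 0.38 ± 0.11 and by 0.40 ± 0.11, and Nr5a1 rose by 0.26 ± 0.09 and by 0.45 ± 0.09. Vdr, the vitamin D receptor, was called in wild-type cells alone, at 0.22 ± 0.09, and Esrrb in knockout cells alone, at 0.34 ± 0.11, differences between genotypes that were not called. The wild-type calls of Vdr and Nr5a1 were lost without any 1 of 10 and 6 arrays (limma, adjusted p up to 0.114 and 0.0997). The glucocorticoid receptor gene Nr3c1 (-0.39 ± 0.16 in wild-type cells) and Pparg (0.13 ± 0.14) were not called in either genotype. None of the 25 was called between genotypes after IL-33, beside 0.986% higher and 1.22% lower over all genes tested, or in the interaction, beside 0%.

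Nr4a1 and Nr4a3 belong by their known behaviour with the immediate-early genes, of which 24 of 26 were tested. In wild-type cells 13 rose (54.2%), 4 fell (16.7%) and 7 were not called, beside 16.1% higher and 26.7% lower over all genes tested. The median change was 0.58 against -0.05 over all genes tested. In knockout cells 14 rose (58.3%), 4 fell (16.7%) and 6 were not called, beside 18.9% higher and 33.2% lower over all genes, with a median of 0.71 against -0.08. The zinc finger factor genes Egr3 and Egr2 rose by 2.80 ± 0.27 and 2.54 ± 0.15 in wild-type and by 3.24 ± 0.27 and 2.91 ± 0.15 in knockout cells. Ier3, a regulator of cell survival, rose by 2.29 ± 0.08 and 2.39 ± 0.08. Limma's adjusted p for these 6 rises was at most 5.87e-08. The 4 that fell, named after their values were seen, were Fos (-1.62 ± 0.12 in wild-type cells), a subunit of AP-1, and the Kruppel-like factor genes Klf2 (-0.97 ± 0.15), Klf10 (-0.72 ± 0.15) and Klf6 (-0.66 ± 0.16). Fosl2 and Zfp36 were not called in either genotype.

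Between genotypes after IL-33, 8 of the 24 immediate-early genes (33.3%) were called higher in knockout cells and 0 lower, beside 0.986% and 1.22% of all genes tested. Their median difference was 0.32 against -0.03 over all genes. The 3 largest were Egr3 at 1.60 ± 0.27, Egr1 at 1.52 ± 0.18 and Fosl1, an AP-1 subunit gene, at 0.81 ± 0.11 (limma, adjusted p = 0.00658, 0.000183 and 0.00142). The differences of Nr4a1 and Nr4a3, 0.82 and 0.70, stood beside 0.74 ± 0.15 for Egr2, and Ier3 at -0.01 ± 0.08 and Fos at 0.04 ± 0.12 were not called. The smaller differences of Egr2, Junb, Maff and Ier5 lost their calls without any 1 of 6, 8, 13 and 15 arrays (limma, adjusted p up to 0.0652, 0.0917, 0.116 and 0.117), and that of Ier2 (0.58 ± 0.09) did not. In medium 0 of the 24 were called between genotypes, beside 0.0255% of all genes tested.

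**Figure D4:**
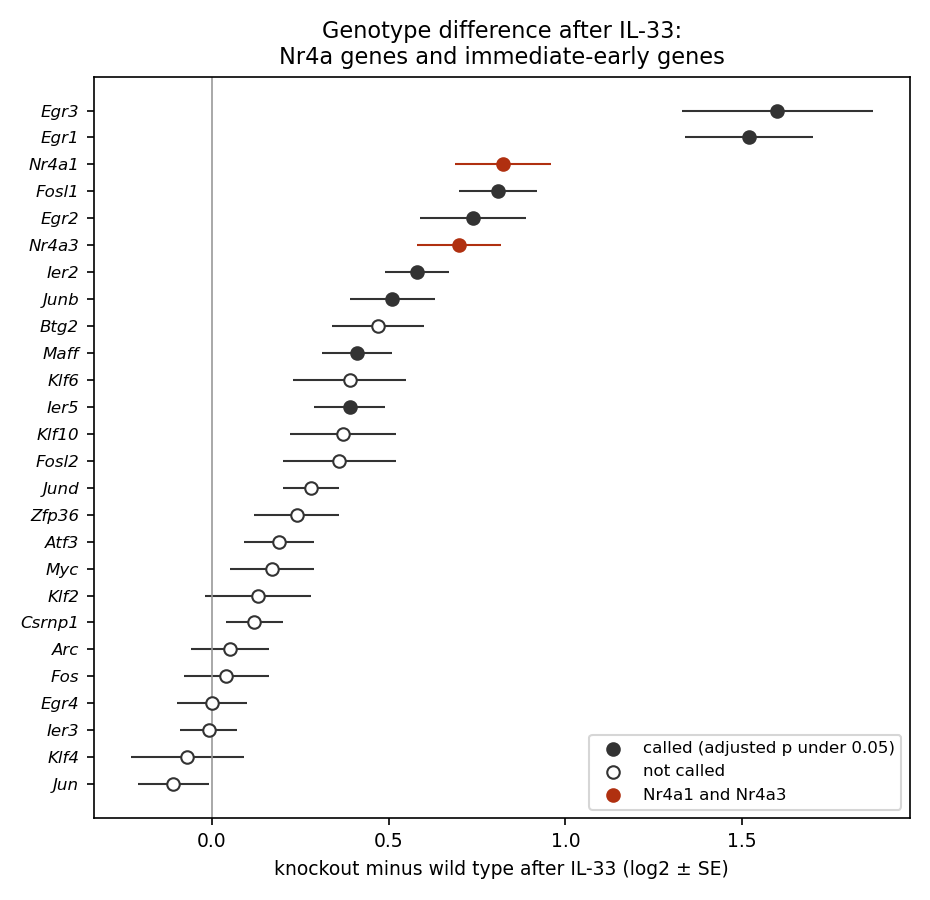
Knockout minus wild type after IL-33 (log2 ± SE from limma) for Nr4a1, Nr4a3 and the 24 immediate-early genes tested, in order of size. Filled points were called at an adjusted p under 0.05 and red points are the NR4A genes. Egr3 (1.60) and Egr1 (1.52) stand apart at the top, followed by Nr4a1 (0.82), and 16 of the immediate-early genes were not called.

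**Figure D5:**
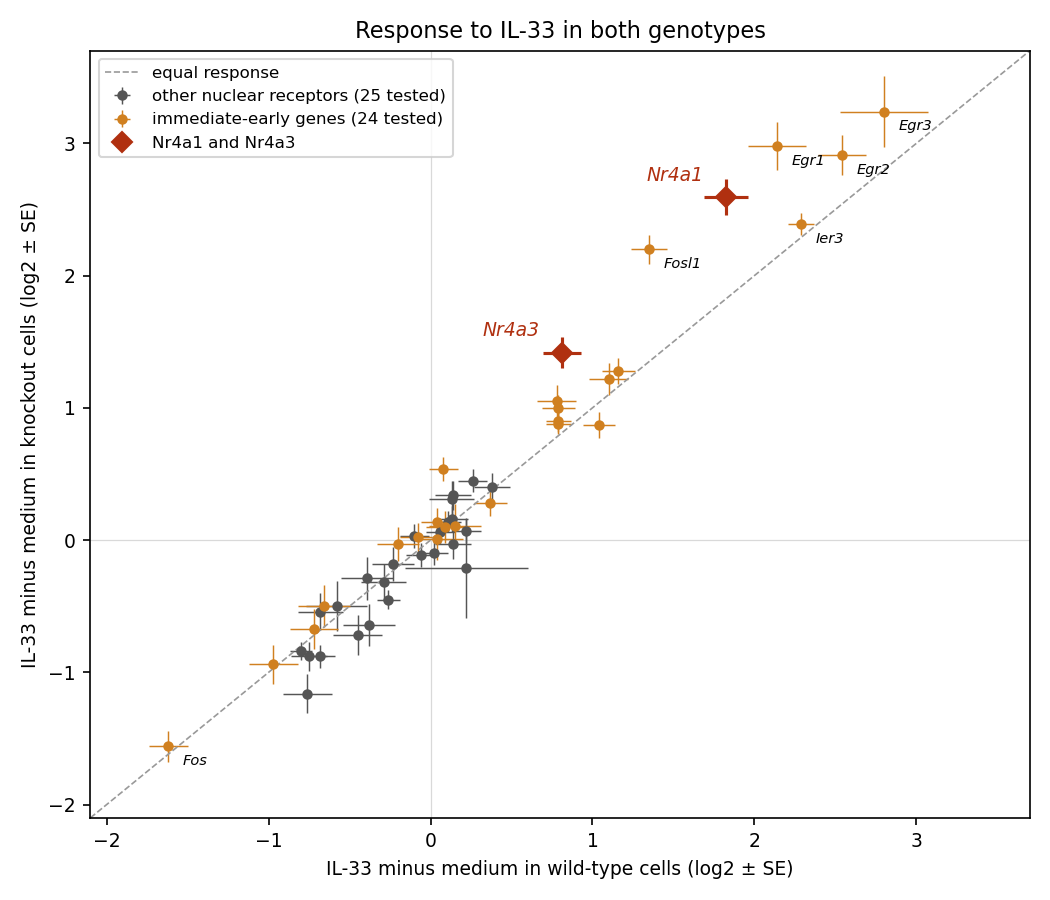
Change with IL-33 in wild-type cells (horizontal) and in knockout cells (vertical), log2 ± SE from limma, for Nr4a1 and Nr4a3 (red diamonds), the 24 immediate-early genes (orange) and the 25 other nuclear receptors (grey). The dashed line marks equal responses. Nr4a1 (1.82 and 2.59) and Nr4a3 (0.81 and 1.42) lie above it, and no grey point rises as far as either.

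Transcripts of the components of routes known to switch on NR4A genes are given with their shares called, beside shares over all genes tested of 16.1% higher and 26.7% lower in wild-type cells and 18.9% and 33.2% in knockout cells. Between genotypes after IL-33 those shares were 0.986% higher and 1.22% lower, so a count of 0 in a short list says little. Of 12 tested genes of CREB, its coactivators and protein kinase A, 0 rose and 4 (33.3%) fell in wild-type cells, near the share of all genes for falls. The 4 were the kinase subunit genes Prkacb (-1.48 ± 0.11) and Prkaca (-0.34 ± 0.07) and the coactivator genes Crtc3 (-0.75 ± 0.10) and Crtc1 (-0.69 ± 0.13), with limma's adjusted p at most 0.000762. In knockout cells 5 fell (41.7%) and 3 rose (25%): the same 4 fell with Prkar2a (-0.30 ± 0.09), while Creb1 (0.41 ± 0.11), Crtc2 (0.26 ± 0.10) and Prkar2b (0.27 ± 0.08) rose. The knockout call of Crtc2 was lost without any 1 of 5 arrays (limma, adjusted p up to 0.0857), and that of Prkar2a under a further quantile normalization (limma, adjusted p = 0.164). Between genotypes after IL-33, 0 of the 12 were called, and Creb1 differed by 0.31 ± 0.11 (limma, adjusted p = 0.099).

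Of 10 tested genes that respond to cAMP and CREB, 2 rose (20%) and 4 fell (40%) in wild-type cells and 2 rose (20%) and 5 fell (50%) in knockout cells, shares that for rises are near those of all genes. The risers were the phosphodiesterase gene Pde4b, by 2.11 ± 0.22 and by 2.12 ± 0.22, and the repressor gene Nfil3, by 1.14 ± 0.14 and by 1.47 ± 0.14. Rgs2, a brake on G protein signalling, fell by 1.46 ± 0.18 and by 1.82 ± 0.18. Dusp1, Sik1 and Per1 also fell in both genotypes (-0.71 ± 0.14, -0.44 ± 0.10 and -0.26 ± 0.08 in wild-type cells), and Pde4d fell in knockout cells (-0.49 ± 0.09). The calls of Per1 were lost under quantile normalization (limma, adjusted p = 0.107 in wild-type and 0.498 in knockout cells). Crem was not called in either genotype. Between genotypes after IL-33, Nfil3 alone was called (0.56 ± 0.14, limma, adjusted p = 0.0474), and that call was lost without any 1 of 15 arrays (limma, adjusted p up to 0.119).

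Of 8 tested MEF2 factors and class IIa histone deacetylases, which hold MEF2 target genes silent, 5 fell (62.5%) in wild-type cells and 0 rose. They were Mef2c (-0.99 ± 0.20), Hdac5 (-0.68 ± 0.12), Hdac4 (-0.55 ± 0.08), Cabin1 (-0.43 ± 0.13), a repressor of MEF2, and Mef2a (-0.39 ± 0.15). In knockout cells 4 of these fell (50%), and Cabin1 was not called (-0.31 ± 0.13). The wild-type call of Mef2a was lost without any 1 of 6 arrays (limma, adjusted p up to 0.10).

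Of 10 calcineurin and NFAT genes, 2 rose and 2 fell in wild-type cells (20% each), and 2 rose (20%) and 4 fell (40%) in knockout cells, near the shares of all genes. Nfatc1 fell by 0.96 ± 0.14 and by 1.10 ± 0.14, Nfat5 rose by 0.43 ± 0.12 and by 0.44 ± 0.12, and Nfatc3 rose by 0.33 ± 0.08 and by 0.29 ± 0.08. Rcan3, an inhibitor of calcineurin, fell in wild-type cells (-0.36 ± 0.13), a call lost without any 1 of 6 arrays (limma, adjusted p up to 0.0725). Ppp3cc (-0.40 ± 0.14), Nfatc2 (-0.39 ± 0.12) and Rcan1 (-0.29 ± 0.09) fell in knockout cells. The call of Ppp3cc was lost without any 1 of 3 arrays (limma, adjusted p up to 0.0516), and those of Nfatc2 and Rcan1 under quantile normalization (limma, adjusted p = 0.078 and 0.171). No gene of the MEF2 or NFAT lists was called between genotypes after IL-33.

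Of 6 genes of serum response factor and its partners, 3 rose (50%) and 2 fell (33.3%) in wild-type cells, and 4 rose (66.7%) and 2 fell (33.3%) in knockout cells. Srf itself rose by 0.60 ± 0.08 and by 0.79 ± 0.08, and the partner genes Elk1 and Elk4, whose proteins ERK phosphorylates, rose by 0.25 ± 0.10 and 0.25 ± 0.09 in wild-type and by 0.49 ± 0.10 and 0.32 ± 0.09 in knockout cells. Mrtfb rose in knockout cells (0.31 ± 0.12). Mrtfa fell by 1.30 ± 0.18 and by 1.41 ± 0.18 and Elk3 by 0.55 ± 0.10 and by 0.80 ± 0.10. The wild-type calls of Elk1 and Elk4 were lost without any 1 of 7 and 3 arrays, and the knockout call of Mrtfb without any 1 of 7 (limma, adjusted p up to 0.129, 0.0791 and 0.0822). None of the 6 was called between genotypes.

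Of 6 tested genes of the ERK step itself, Dusp5 included, 3 rose (50%) and 1 fell (16.7%) in wild-type cells and 3 rose (50%) and 2 fell (33.3%) in knockout cells. Besides Dusp5, Dusp6, the cytoplasmic phosphatase of ERK, rose by 0.65 ± 0.23 and by 1.08 ± 0.23, and the kinase gene Map2k1 by 0.42 ± 0.07 and by 0.46 ± 0.07. Rps6ka5, whose protein phosphorylates CREB, fell by 0.39 ± 0.12 and by 0.47 ± 0.12, and Map2k2 fell in knockout cells (-0.20 ± 0.07), a call lost without any 1 of 4 arrays (limma, adjusted p up to 0.0886). After IL-33, Dusp6 was higher in knockout than in wild-type cells by 0.96 ± 0.23 (limma, adjusted p = 0.0373) and Dusp5 lower. The wild-type and genotype calls of Dusp6 were lost without any 1 of 4 and 8 arrays (limma, adjusted p up to 0.0856 and 0.104).

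Of 31 genes reported in other cells to be controlled by NR4A factors, 27 were in the table and 18 were tested, and of these 6 rose (33.3%) and 5 fell (27.8%) in wild-type cells and 6 rose and 6 fell (33.3% each) in knockout cells, beside 16.1% and 26.7%, and 18.9% and 33.2%, of all genes. The largest changes were those of Arg1, the arginase of alternatively activated cells, by 3.44 ± 0.21 and by 3.17 ± 0.21, of the transcription factor gene Irf4, by 2.73 ± 0.16 and by 3.01 ± 0.16, and of the vesicular monoamine transporter gene Slc18a2, by 2.21 ± 0.13 and by 2.33 ± 0.13. The 5 that fell in wild-type cells were Klf2 (-0.97 ± 0.15), Txnip (-0.96 ± 0.27), Cx3cr1 (-0.82 ± 0.16), Hdac5 (-0.68 ± 0.12) and Ikzf2 (-0.41 ± 0.12). Of these, Klf2, Cx3cr1 and Hdac5 also stand in lists above. Pomc and Ccr7 were not called in either genotype, and Pdcd1, Tox, Foxp3 and Th were too dim to be tested. Between genotypes after IL-33, 0 of the 18 were called, where 0.986% of all genes tested were called higher and 1.22% lower. With so few calls over all genes, a count of 0 among 18 says little. The 18 had a median difference of 0.07 against -0.03 over all genes, and the differences of Nr4a1 and Nr4a3 were 0.82 and 0.70. The list draws on other tissues, and the dependence of these genes on NR4A proteins in eosinophils was not tested.

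Nr4a1 protein can leave the nucleus and bind Bcl2, so the Bcl2 family was read beside it. Of 10 genes, 5 rose (50%) and 1 fell (10%) in wild-type cells, beside 16.1% and 26.7% of all genes tested. In knockout cells 5 rose (50%) and 2 fell (20%), beside 18.9% and 33.2%. The risers were the death gene Bcl2l11 (Bim), by 1.63 ± 0.13 and by 2.02 ± 0.13, the survival gene Bcl2, by 1.37 ± 0.18 and by 1.92 ± 0.18, the survival gene Bcl2l1, by 1.19 ± 0.09 and by 1.28 ± 0.09, Pmaip1 (Noxa), by 1.18 ± 0.07 and by 1.36 ± 0.07, and Bcl2l2, by 0.38 ± 0.10 and by 0.47 ± 0.10. Bbc3 (Puma) fell by 1.05 ± 0.08 and by 1.18 ± 0.08, and Bad fell in knockout cells (-0.43 ± 0.11). Mcl1 and Bid were not called. After IL-33, Bcl2l11 was the 1 gene of the 10 (10%) called between genotypes, beside 0.986% higher and 1.22% lower over all genes tested. It was higher in knockout cells by 0.78 ± 0.13 (limma, adjusted p = 0.00807, and 0.0554 when the 2 groups compared were fitted alone). Bcl2 differed by 0.63 ± 0.18 (limma, adjusted p = 0.0625).

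Of 11 tested coregulators that bind NR4A proteins or act on their target genes, 0 rose and 6 fell (54.5%) in wild-type cells, against 26.7% of all genes lower, and 2 rose (18.2%) and 4 fell (36.4%) in knockout cells, near the 18.9% and 33.2% of all genes. The coactivator gene Ncoa1 fell by 0.69 ± 0.10 and by 0.97 ± 0.10, Nrip1 by 0.48 ± 0.13 and by 0.50 ± 0.13, Trim28 by 0.40 ± 0.14 and by 0.47 ± 0.14 and Pias3 by 0.25 ± 0.07 and by 0.39 ± 0.07. The wild-type call of Trim28 was lost without any 1 of 3 arrays (limma, adjusted p up to 0.0804). That of Pias3 was lost under quantile normalization (limma, adjusted p = 0.14). Hdac3 (-0.17 ± 0.05) also fell in wild-type cells, a call lost in 2 settings with all arrays kept (limma, adjusted p up to 0.124). The wild-type share of falls rests in part on these calls. The 2 risers in knockout cells were Lcor (0.42 ± 0.10) and Hdac1 (0.18 ± 0.07), the second lost without any 1 of 7 arrays (limma, adjusted p up to 0.105). The histone demethylase gene Kdm1a, part of the corepressor complex that Nr4a2 recruits, and Ncoa3 were not called. After IL-33, Lcor was called higher in knockout cells (0.39 ± 0.10, limma, adjusted p = 0.0449), a call lost without any 1 of 13 arrays (limma, adjusted p up to 0.124).

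The genes whose pattern over the 20 arrays was most like that of Nr4a1 were found by the root mean square difference between values, each gene centred on its own mean. In order they were Plk3, a polo-like kinase (0.213), Olr1, the receptor of oxidized low-density lipoprotein (0.252), Il1f9, a cytokine of the interleukin-1 family (0.267), Cd14, the lipopolysaccharide co-receptor (0.280), and Osgin2 (0.296). Their rises with IL-33 ran from 1.93 to 2.14 in wild-type and from 2.40 to 2.63 in knockout cells. Because the genes were chosen by likeness over these same arrays, rises and genotype differences near those of Nr4a1 follow from the choice. Plk3 differed by 0.84 ± 0.12 between genotypes after IL-33 (limma, adjusted p = 0.00142), beside the 0.82 of Nr4a1. Cd14, with 0.35 ± 0.11, was not called (limma, adjusted p = 0.0778). The genotype calls of Olr1, Il1f9 and Osgin2 were lost without any 1 of 6, 13 and 7 arrays (limma, adjusted p up to 0.064, 0.116 and 0.095).

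The genes most like Nr4a3 were Nlrp3, the sensor of an inflammasome (0.173), Furin, a proprotein convertase (0.200), Rabgef1, an exchange factor of endosomal Rab5 (0.208), Dusp2, a nuclear MAP kinase phosphatase (0.220), and Clcn5, a chloride-proton exchanger (0.220). Their rises ran from 0.58 to 1.07 in wild-type and from 1.13 to 1.45 in knockout cells. Rabgef1 differed by 0.57 ± 0.11 between genotypes after IL-33 (limma, adjusted p = 0.0116, and 0.0654 when the 2 groups compared were fitted alone). The genotype calls of Nlrp3, Furin, Dusp2 and Clcn5 were lost without any 1 of 6, 13, 7 and 12 arrays (limma, adjusted p up to 0.0744, 0.112, 0.0917 and 0.124). Nr4a3 itself ranked 186 in likeness to Nr4a1, with 0.598, since its rise was smaller. Likeness is a description over arrays that share their mice and treatment and carries no test. For Nr4a3 too, similar rises and genotype differences follow from the choice of the genes.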

How the data were processed

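The deposited table holds log2 values of 20630 probe sets on 20 arrays, and the scale was read from the values, 1.27 to 13.99. Per the labels' protocols, biotin-labelled cRNA was hybridised, and of the background correction and normalization nothing is given in the sources used here. Array medians lay between 4.25 and 4.32. Gene names came from the platform annotation, in which 17826 probe sets had 1 symbol, 91 had several and 2711 had none. The highest mean was kept for 54 genes with several probe sets, and 17675 probe sets were matched to RefSeq.

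A gene was tested when it exceeded its array's 40th percentile on at least 5 arrays, which 11767 genes did. All arrays entered 1 linear model with 4 group means and 16 residual degrees of freedom (limma 3.58.1, R 4.3.3, lmFit and eBayes). Calls are at a Benjamini-Hochberg adjusted p under 0.05 over the genes tested, and differences are on the log2 scale of the deposited values. Permutation tests used scipy 1.17.1. Arrays were grouped by their labels for genotype and treatment, not by title. Replicate numbers were checked as mouse pairs: same-numbered arrays of a genotype deviated together in 10 of 10 pairs (r from 0.262 to 0.783). No 2 arrays held identical values. The alternatives changed the filter, the scaling, the mouse block, the arrays fitted and the variance moderation.

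The members and gene lists were chosen with earlier results of these data known. The text names the family and Dusp5, per list the 3 called genes of largest change and up to 2 not called, any genes of the CREB and retinoid X receptor lists, and the 5 genes most like Nr4a1 and Nr4a3. Further list and marker genes, named to complete a count, to give a genotype difference or to show a smaller riser, were chosen after their values were seen.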

Additional observations from a re-analysis of the deposited data

Results flagged for a closer look

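The level of Nr4a1 on 1 wild-type array in medium, 5.88, stood apart from the other 4 arrays of its group (gap of 0.726 of the group's range). Without that array the rise of Nr4a1 in wild-type cells was 1.69 instead of 1.82, and the difference of the responses 0.90 (limma, adjusted p = 0.244). The level of Nr4a2 on 1 knockout array in medium, 3.23, stood above the other 4 (gap of 0.80 of the range), and was still below the array's 40th percentile. Such gaps arise by chance in about 1 of 20 groups, and 12 groups were looked at.

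The rise with IL-33 per mouse differed between genotypes, by 0.77 for Nr4a1 and by 0.60 for Nr4a3 (knockout minus wild type, log2, exact permutation p = 0.0238 and 0.0159, 5 mice per genotype). Their cause was not tested.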

How the results depend on the processing

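The rises of Nr4a1 and Nr4a3 with IL-33 in each genotype, and their higher levels in knockout cells after IL-33, kept direction and call in every setting that gives them. The settings were no filter or a stricter one on dim genes, a further quantile normalization, the replicate block, the 2 groups compared alone, robust variance moderation, and each array left out. The fixed block gives no difference between genotypes. A changed filter, or an array left out of other groups, can alter the adjusted p but not the difference. Leaving out arrays moved the genotype difference after IL-33 between 0.73 and 0.90 for Nr4a1 (adjusted p 0.000896 to 0.0241) and between 0.63 and 0.77 for Nr4a3 (0.00305 to 0.035), and the other settings gave adjusted p up to 0.0248 and 0.0294. The difference of the responses lay between 0.67 and 0.90 for Nr4a1 and between 0.53 and 0.69 for Nr4a3 without single arrays. For Nr4a1 it passed with the random replicate block (0.77, adjusted p = 0.0482), which changed no other call of the 3 genes. Of 404 tested values and counts of calls recomputed, 381 stayed on their side of the threshold or within 1.5 times the count, and 127 values of Nr4a2 had no test. The 260 genes called between genotypes after IL-33 became 152 without the filter, 444 with the 60th percentile, 514 with the random replicate block, 24 when those groups were fitted alone, and from 33 (without wild-type IL-33 replicate 5) to 1659 (without wild-type IL-33 replicate 2) when 1 array was left out. The 3 genes called in medium became up to 15 without 1 array, and the 0 in the interaction became 26 with the random block and up to 3 without 1 array. With IL-33, the 1890 genes called higher and 3137 lower in wild-type cells became 2550 and 4140 with the random block. They became 2145 and 2615 under quantile normalization. In knockout cells 2228 higher and 3909 lower became 2914 and 4785, and 2675 and 3225, in the same settings. The shares called in the gene lists were not recomputed under them. Quantile normalization turned the share of calls after IL-33 that were higher in knockout cells from 44.6% to 67.7%; the cause of these shifts was not tested. A second probe set could not be tried, since each of the 3 genes had 1. The deposited values carry no background level, which limits what can be said of Nr4a2 and of the low level of Nr4a3, and probe sets this dim can understate a change. With 5 mice per genotype and 4 hours as the only time, the course of the response was not analysed here.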
